A study of Mus musculus with 6 samples.

Results

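The 10 genes described here encode the immediate early factors of the AP-1, EGR and MYC families. They were taken by symbol: Fos, Fosb, Fosl1, Fosl2, Jun, Junb, Jund, Egr1, Egr2 and Myc. All 10 were found among the 27263 genes listed in the deposited tables. The samples were cultures of primary stromal cells from the leg bones of C57BL/6 mice, sorted for Sca-1 and CD29 and against CD45 and CD11b. One group of 3 libraries received PBS and another group of 3 received rGCA at 50 nM, each for 3 days, and no genotype, sex or age beyond the strain is given in the labels. The labels do not spell out GCA, which is read here, from knowledge of the study, as grancalcin, made by neutrophils and macrophages, with rGCA as the recombinant protein. Nothing in the labels ties a replicate to an animal or culture of its own, so each p-value speaks of the spread among these libraries, which may be technical.

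AP-1 is a dimer of a JUN protein with a FOS protein or with another JUN protein, joined by a leucine zipper. Many of its genes, with Egr1 and Egr2, are switched on within minutes of serum, growth factors, stress or handling, through kinases that act on SRF with its ternary complex partners and on CREB. Their transcripts decay fast, so an RNA level reflects the recent past of the culture. Fosl1, Fosl2 and Jund are the later or steadier members, and MYC drives growth genes together with its partner MAX. In bone, FOS is required for osteoclasts and FOSL2 and FOSL1 act in osteoblasts. A sample taken after days of treatment does not show an early burst at its start, and recent handling of the culture may add to the level read.

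Sequence motifs of the factors named above, found just before the start sites of members, are shown first because they are the kind of element through which such signals are known to act. RefSeq promoter sequences on GRCm38.p6 were matched for 7 of the 10 members; Fosl1, Egr1 and Myc were not matched. The 250 bases before each start were searched on both strands for TGACG, the core that CREB and AP-1 dimers of the ATF type bind, for the full palindrome TGACGTCA, which contains it, for TGACATCA and TGACTCA, which JUN dimers bind, for the EGR motifs GCGGGGGCG and GCGTGGGCG, for the MYC motif CACGTG, for TATAAA and for the CArG box of SRF. Of 32851 promoter entries, 17.8% held TGACG, 2.93% held TGACATCA, 2.57% held GCGGGGGCG and 1.47% held a CArG box. In the following 25-base flanks the motif is in capitals, read 5′ to 3′ on the strand of the gene, and none of these stretches overlaps an annotated exon of its gene.
Fos, chr12:85473799-85473853, plus strand, 66 bases before the start: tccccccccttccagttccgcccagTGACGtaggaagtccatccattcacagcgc
Fosb, chr7:19310076-19310130, minus strand, 60 bases before: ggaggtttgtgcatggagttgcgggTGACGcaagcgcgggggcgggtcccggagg
Jun, chr4:95052235-95052292, minus strand, 45 bases before: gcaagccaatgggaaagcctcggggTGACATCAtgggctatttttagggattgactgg
Junb, chr8:84978825-84978879, minus strand, 106 bases before: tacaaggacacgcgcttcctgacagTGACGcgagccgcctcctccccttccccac
Egr2, chr10:67537772-67537831, plus strand, 72 bases before the start at 67537869: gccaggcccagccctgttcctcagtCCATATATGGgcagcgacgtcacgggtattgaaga

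Fos, Fosb, Junb and Egr2 held TGACG, which in Egr2 lies beside the CArG box shown, on the minus strand as CGTCA. Egr2 had several start entries, whereas the shares above are per entry. Another CArG box lay 72 bases before its start at 67537566. The Jun promoter held the variant TGACATCA. The Fosb promoter also held GCGGGGGCG, 50 bases before the start, which lies to the right of the capitals in the Fosb line. No TGACG was found in the windows of Fosl2 and Jund, and that of Fosl2 held GCGGGGGCG in a stretch that overlaps an annotated exon of the gene. CACGTG was found in Egr2, 27 bases before the start at 67535499 and also over an exon, and TATAAA in Fos, 33 bases before the start. Of all promoter entries 6.02% held CACGTG and 12.4% held TATAAA. Neither TGACTCA nor TGACGTCA was found in a member's window, and these are in 4.46% and 1.55% of promoter entries. A match describes letters only and is not a measured binding site.

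None of the members differed between GCA and PBS beyond the spread of the libraries. Of the 8 tested, 0 rose and 0 fell at an adjusted p of 0.05 (limma), beside 17.9% called among the 11984 genes tested, 11.5% higher and 6.43% lower. An unadjusted p under 0.05 was reached by 0 of the 8, and the share of all genes under that value was not counted. Adjusted p-values ran from 0.412 for Fosl2 to 0.98 for Egr1. In all 10 genes the GCA values overlapped the PBS values, whereas the groups did not overlap for 38.5% of tested genes. The test was limma on log2(FPKM + 1), run on every gene whose 6 libraries averaged 1 FPKM or more, where FPKM counts fragments scaled by exon length and by library total. Log2 differences are on that scale, where the added 1 makes changes of genes at a few FPKM smaller than their FPKM ratio. The median difference of the 8 was −0.07 log2 units, and that over all tested genes was 0.0056. Fosb and Egr2 lay below the filter and were left to an exact permutation test, whose smallest possible p with 3 against 3 libraries is 0.1. The count of 0 held under the 10 other settings tried with all 6 libraries, but leaving out GCA replicate 2 gave 1 member lower, Fos.

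**Figure D1:**
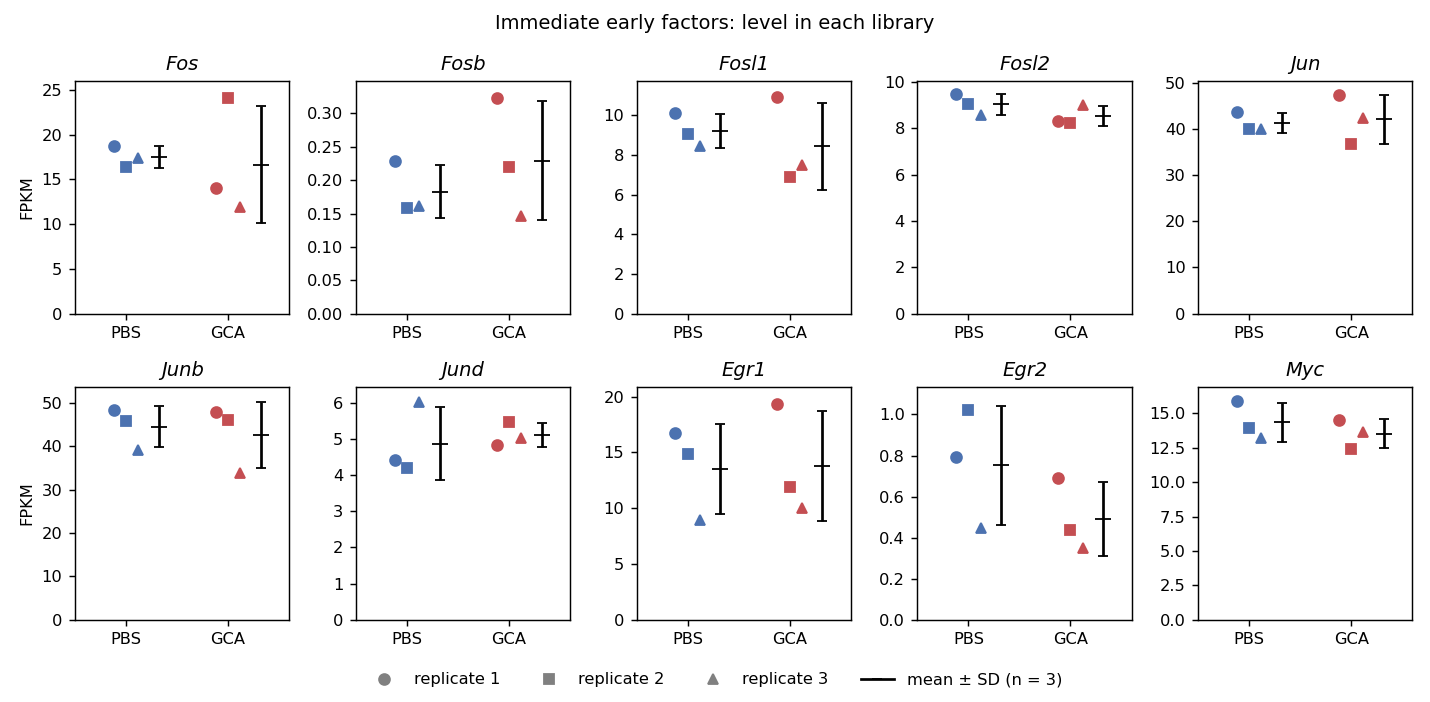
Level of each member in FPKM (vertical axis, from 0) in the 3 PBS and 3 GCA libraries, with the mean ± SD in black. In all 10 panels the groups overlap, and in the Fos panel GCA replicate 2 at 24.0 FPKM stands above the other 5 libraries.

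Markers of macrophages were present in every library in spite of the sort, and 6 of the 12 listed rose with GCA, 1 fell (Lyz2) and 5 did not pass, which is 58.3% called beside 17.9% of all genes. Their summed level was 17702 to 19791 FPKM in PBS and 15175 to 16400 FPKM in GCA. Most of that sum was Lyz2, and the other 11 summed to 5076 to 5614 FPKM in PBS and 6709 to 7143 in GCA, the opposite direction. The stromal list summed to 2883 to 3128 FPKM in PBS and 2506 to 2702 FPKM in GCA, with 3 of 10 tested genes lower (30% called beside 17.9% of all genes). Neutrophil markers, 6 of 10 found, summed to 10.8 to 13.4 FPKM in PBS and 13.3 to 18.6 in GCA, or to 3.04 to 5.31 and 2.45 to 5.02 without Csf3r, the only one called. The endothelial markers summed to 3.11 to 3.90 FPKM over all libraries. Ptprc, which encodes the CD45 sorted against, stood at 12.6, 13.2 and 12.0 FPKM in PBS and 12.91, 14.48 and 12.95 in GCA, with overlap, and did not pass. Immediate early genes are used by macrophages and stromal cells alike, and in bulk RNA fewer cells of a type and less RNA per cell cannot be told apart. Library totals, as implied by the values, were 17543509 to 18645931 fragments, and mitochondrial genes took 3.78% to 4.64% of FPKM.

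Fos (ENSMUSG00000021250, chromosome 12, 85473890 to 85477273, plus strand), the founding partner of JUN, was the member in which a single library decided the result. It stood at 18.7, 16.3 and 17.4 FPKM in PBS replicates 1 to 3 and at 14.0, 24.0 and 11.9 FPKM in GCA replicates 1 to 3. The PBS values lay close together, GCA replicates 1 and 3 lay below all of them, and GCA replicate 2 lay above all of them. The means were 17.5 ± 1.20 and 16.6 ± 6.50 FPKM (SD, n = 3 each), a difference of −0.13 log2 units (95% interval −0.76 to 0.50, limma adjusted p = 0.776). Without GCA replicate 2 the difference was −0.41 log2 units (limma adjusted p = 0.0163), with 17.3% of all genes called in that fit and 6.4% called lower. Over the runs that left out 1 library each, the adjusted p of Fos ran from 0.0163 to 0.954, and without GCA replicate 3 the difference was 0.071. The fragments behind these values were 803, 698 and 728 in PBS and 588, 992 and 520 in GCA.

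Among the macrophage markers GCA replicate 2, the library in which Fos was highest, was the highest GCA library for 5 of 12 (Ptprc, Itgam, Adgre1, Lyz2 and Cd14) and the lowest for the other 7. Adgre1, which encodes the macrophage surface protein F4/80, stood at 352, 382 and 330 FPKM in PBS and at 256, 420 and 224 FPKM in GCA replicates 1 to 3. Itgam, which encodes CD11b, stood at 36.7, 43.1 and 38.1 FPKM in PBS and 24.9, 40.9 and 25.7 in GCA. Cd14, a receptor for bacterial lipopolysaccharide, was at 78.5, 78.5 and 71.9 FPKM in PBS and 38.8, 59.7 and 25.3 in GCA. These 3 were singled out after their values were seen, and none passed limma (adjusted p 0.452, 0.244 and 0.0852). Cd68, a lysosomal protein, and Mrc1, a mannose receptor, had their lowest GCA value in replicate 2, at 1028, 827 and 977 FPKM and at 383, 364 and 456 FPKM in GCA replicates 1 to 3. Csf1r, the receptor for the macrophage growth factor, stood at 166, 153 and 160 FPKM there. The part of these cells in the Fos values was not tested.

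**Figure D2:**
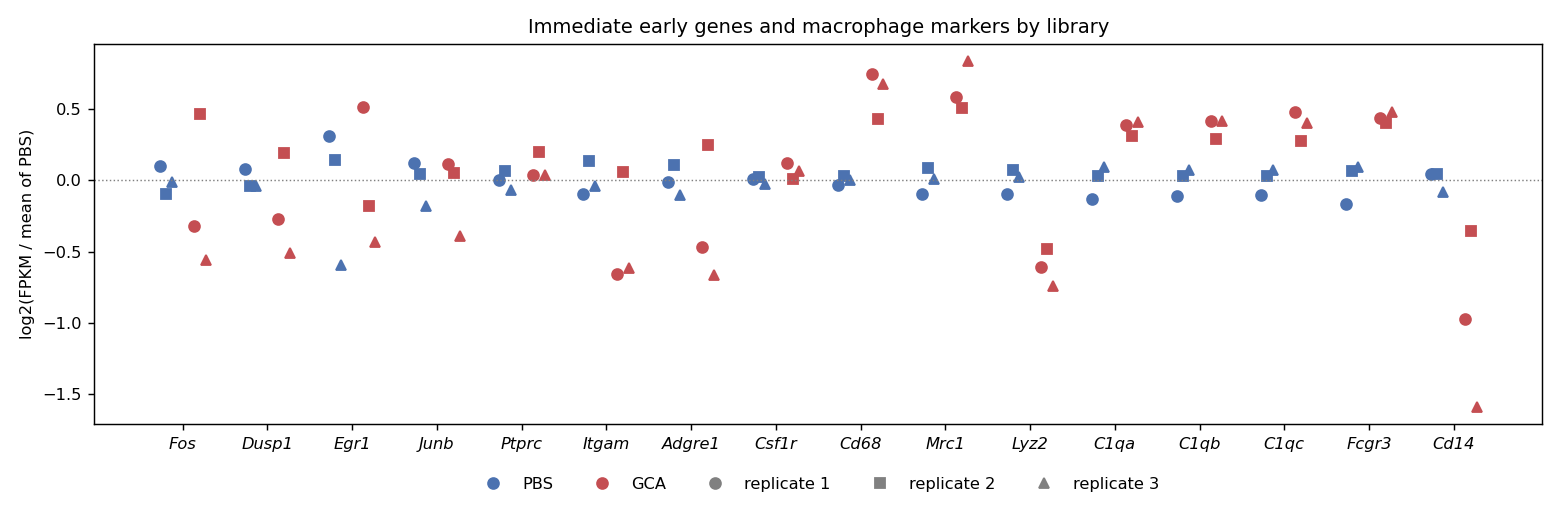
Level relative to the PBS mean (log2 of the FPKM ratio, vertical axis) for 4 immediate early genes and all 12 macrophage markers, 1 point per library. GCA replicate 2 (red squares) is the highest GCA library for Fos and Dusp1 and for 5 of the 12 markers, and the lowest for the other 7.

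The other FOS genes lay at lower or steadier levels. Fosl1 (ENSMUSG00000024912, chromosome 19, 5447547 to 5455946), which encodes FRA-1, stood at 10.1, 9.07 and 8.44 FPKM in PBS and 10.9, 6.88 and 7.48 in GCA. The highest of the 6 libraries was GCA replicate 1 and the lowest was GCA replicate 2, the library in which Fos was highest. Its difference was −0.14 log2 units (95% interval −0.52 to 0.24, limma adjusted p = 0.599), and without GCA replicate 1 it was −0.32 (limma adjusted p = 0.0525). Fosl1 is uncertain as a level. In GENCODE M21, 1163 of its 2033 exon bases overlap exons of Ccdc85b on the other strand, itself at 28.7 and 31.0 FPKM. The deposited Fosl1 values fit a length of 1707 bases instead, so the overlap in the gene model behind them is not known. Whether counting used strand is not stated in any source at hand.

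Fosl2 (chromosome 5, 32135801 to 32157842), which encodes FRA-2, was the steadiest member. Its values were 9.49, 9.05 and 8.57 FPKM in PBS and 8.34, 8.21 and 9.02 in GCA. The libraries differed by at most 1.16-fold, and GCA replicate 3 lay within the PBS values. The difference of −0.08 log2 units had a 95% interval of −0.21 to 0.06 (limma adjusted p = 0.412). Fosb (chromosome 7, 19302696 to 19310051), a close relative of Fos, was near the limit of the data at 0.23, 0.16 and 0.16 FPKM in PBS and 0.32, 0.22 and 0.15 in GCA. Only 17 to 36 fragments per library lay behind those values, and an exact two-sided permutation test gave p = 0.7.

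Summed over the 4 FOS genes the level was 35.9 ± 2.31 FPKM for PBS against 33.8 ± 5.43 for GCA (SD, n = 3 each). Fos itself made up 47.2% to 50.3% of that sum in PBS. In GCA it made up 41.7%, 61.1% and 41.6% in replicates 1 to 3, so the makeup of the family shifted most in GCA replicate 2. Fosl1 took 17.5% of the sum in that library and 24.5% to 32.5% in the other 5. Fosb was under 1% of the sum in each library.

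Jun and Junb were the most abundant members and held ranks 1 and 2 in each library, in either order, while Jund held rank 8. Jun (ENSMUSG00000052684, chromosome 4, 95049034 to 95052222, minus strand), the main transactivating partner, stood at 43.7, 40.0 and 39.9 FPKM in PBS and 47.3, 36.7 and 42.3 in GCA. GCA replicates 1 and 2 lay on opposite sides of all PBS values. The means were 41.2 ± 2.19 and 42.1 ± 5.31 FPKM (SD, n = 3 each). Its difference was 0.03 log2 units (95% interval −0.18 to 0.23, limma adjusted p = 0.876), and −0.02 after quantile normalization. An antisense gene, Junos, overlaps 232 of its 3189 exon bases and was listed at 0.61 and 0.48 FPKM.

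Junb (chromosome 8, 84974484 to 84978718, minus strand), which restrains or replaces JUN at many promoters, stood at 48.3, 45.8 and 39.2 FPKM in PBS. In GCA it was 48.0, 46.0 and 33.9 FPKM, and the third replicate was the lowest library in both groups. The difference was −0.07 log2 units (95% interval −0.42 to 0.28, limma adjusted p = 0.78). On the other strand Prdx2, at 40.1 and 37.5 FPKM, shares 173 of the 2301 exon bases of Junb, so reads of the pair cannot be told apart there if counting did not use strand.

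Jund (chromosome 8, 70698949 to 70700616, plus strand), a member usually made at a steady rate, stood at 4.41, 4.19 and 6.02 FPKM in PBS and 4.83, 5.47 and 5.02 in GCA. PBS replicate 3 was the highest library, and all GCA values lay inside the range of PBS. The difference was 0.07 log2 units (95% interval −0.20 to 0.33, limma adjusted p = 0.723). The antisense gene Gm11175 overlaps 877 of its 1668 exon bases, which makes the Jund level uncertain if counting did not use strand. Gm11175 is not among the listed genes, so its own level is not known. Summed, the JUN genes stood at 90.5 ± 5.69 FPKM for PBS against 89.8 ± 9.59 for GCA (SD, n = 3 each). That was 2.47 to 2.60 times the FOS sum in PBS and 2.98, 2.24 and 2.85 times in GCA replicates 1 to 3, so JUN transcripts outnumbered FOS transcripts in each library.

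Egr1 (ENSMUSG00000038418, chromosome 18, 34859823 to 34864984, plus strand), a zinc finger activator of serum and stress responses, had the widest interval of the 8. Its values were 16.7, 14.9 and 8.96 FPKM in PBS and 19.3, 11.9 and 10.0 in GCA. The first replicate was the highest and the third the lowest in each group, and the range of each group covered most of the other. The means were 13.5 ± 4.06 and 13.8 ± 4.90 FPKM (SD, n = 3 each). The difference of 0.02 log2 units had a 95% interval of −0.76 to 0.80 (limma adjusted p = 0.98), and it was −0.0012 after quantile normalization. A change of up to about these bounds in either direction could have gone uncalled here. The interval is not adjusted for the number of genes tested, so a somewhat larger change could have been missed too.

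Egr2 (chromosome 10, 67535475 to 67542188, plus strand), a relative of Egr1 that also acts in macrophages and osteoclast precursors, was below the filter. It stood at 0.79, 1.02 and 0.45 FPKM in PBS and 0.69, 0.44 and 0.35 in GCA, from 22 to 63 fragments per library. GCA replicates 2 and 3 lay below all PBS values and GCA replicate 1 lay within them. The means were 0.75 ± 0.29 and 0.49 ± 0.18 FPKM (SD, n = 3 each), and an exact two-sided permutation test gave p = 0.2.

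Myc (ENSMUSG00000022346, chromosome 15, 61985391 to 61990374, plus strand), the growth regulator, stood at 15.9, 13.9 and 13.2 FPKM in PBS and 14.5, 12.4 and 13.6 in GCA. The lowest library was GCA replicate 2 and the highest was PBS replicate 1, and the groups overlapped. The difference of −0.08 log2 units had a 95% interval of −0.26 to 0.10 (limma adjusted p = 0.532). Of the 8 tested members only Fosl2 had a narrower interval.

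**Figure D3:**
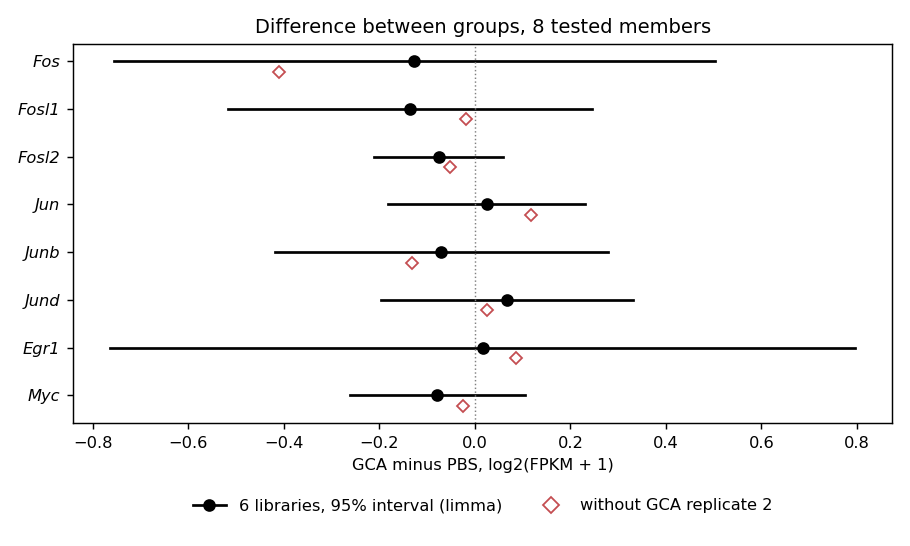
Difference GCA minus PBS on the log2(FPKM + 1) scale (horizontal axis) for the 8 tested members, with the 95% interval from limma as a bar and the value without GCA replicate 2 as an open diamond. Each interval includes 0, those of Fos and Egr1 are the widest, and the diamond of Fos lies at −0.41.

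The order of the levels was Junb and Jun first, then Fos, Myc and Egr1, then Fosl1 and Fosl2, then Jund, Egr2 and Fosb. Junb and Jun changed places between libraries, and so did Fos, Egr1 and Myc, and Fosl1 and Fosl2, so these neighbours were not separated by more than their spread. Jund, Egr2 and Fosb held ranks 8, 9 and 10 of the members in all 6 libraries. By mean FPKM over the 6 libraries Junb ranked 1128 of 27263 genes and Fos ranked 3060.

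The spread between replicates was larger than counting error in both groups for 8 of the 10 members; the exceptions were Fosb in PBS and Jund in GCA. On the log2(FPKM + 1) scale the SD within groups was 0.45 for Egr1 and 0.36 for Fos, above that of 98.3% and 97.4% of tested genes. The median over tested genes was 0.081. Fosl2, at 0.066, was above 34.2% of genes. As a coefficient of variation the 3 Egr1 values of PBS spread by 30.0%, where counting error alone would give 3.02%, and those of GCA by 35.6% against 3.00%. The Fos values spread by 6.84% in PBS and 39.1% in GCA, where counting error alone would give 3.67% and 3.78%. For Fosb in PBS the spread was 21.5%, just under that of counting error, and for Jund in GCA it was 6.39% against 8.08%. These counting errors treat fragments as independent molecules.

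**Figure D4:**
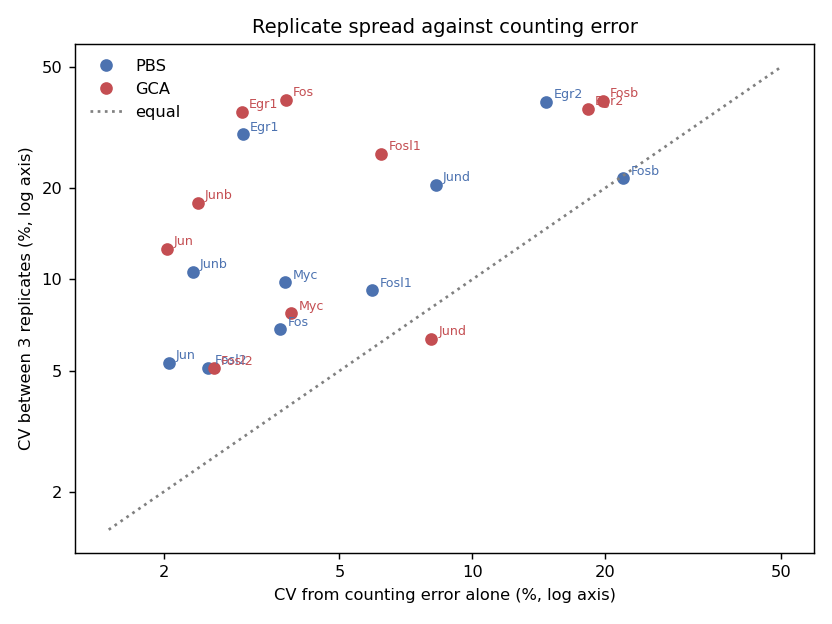
Coefficient of variation between the 3 replicates of a group (vertical axis, percent, log scale) against that from counting error alone (horizontal axis, percent, log scale), 1 point per member and group. Egr1 in both groups and Fos in GCA lie far above the dotted line of equality, and Fosb in PBS lies on it.

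Genes whose levels ran most like a member over the 6 libraries were looked up among 7023 other genes averaging 5 FPKM or more, leaving out predicted genes, unnamed clones and those not matched to GENCODE M21. They are named as a description: all points share the libraries, and the highest of so many correlations is high by selection. For Fos they were Akap10, Emilin2 and Maf1 (Pearson r = 0.984, 0.983 and 0.982, n = 6 libraries). Dusp1, which encodes a phosphatase that switches off MAP kinases and is itself an immediate early gene, was sixth for Fos with r = 0.966. It was 2483rd for Egr1 with r = 0.11. For Egr1 the nearest were Tbk1, Trim21 and Ring1 (r = 0.979, 0.959 and 0.958), for Junb Marcksl1, Ppp4c and Got1 (r = 0.973, 0.971 and 0.964), and for Myc Pofut2, Phldb1 and Rbm27 (r = 0.989, 0.983 and 0.978).

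Dusp1 stood at 71.0, 65.5 and 65.5 FPKM in PBS and 55.8, 76.9 and 47.3 in GCA, the same order within GCA as Fos. It did not pass with all libraries (−0.19 log2 units, limma adjusted p = 0.491), and without GCA replicate 2 its difference was −0.38 (limma adjusted p = 0.0158). Its promoter holds the full palindrome TGACGTCA, found in 1.55% of promoter entries, whose first 5 bases are the motif shown for Fos. Dusp1 was the only gene outside the members whose sites were listed, and TGACG itself was in 17.8% of promoter entries. Junb holds TGACG too, and Dusp1 was 279th for Junb with r = 0.656. A link between the motif and the levels was not tested.
Dusp1, chr17:26508583-26508640, minus strand, 143 bases before the start: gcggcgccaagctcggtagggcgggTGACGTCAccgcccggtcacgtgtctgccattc

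Other immediate early genes moved both ways. Of 32 listed, 29 were tested, 4 rose, 4 fell and 21 did not pass, which is 27.6% called beside 17.9% of all genes, with a median difference of −0.04 log2 units. Gadd45a, a stress gene of growth arrest, went from 4.75 ± 0.13 to 2.50 ± 0.51 FPKM (SD, n = 3 each; log2 −0.73, SE 0.105, limma adjusted p = 0.0033). Btg1, an inhibitor of proliferation, fell from 23.7 to 18.1 FPKM and Klf6, a zinc finger factor, from 80.4 to 70.2. Klf10, a TGF-beta induced factor, rose from 6.10 to 7.87 FPKM and Klf2, a quiescence factor, from 11.9 to 15.2. The matricellular genes Ccn1, at 200 and 189 FPKM, and Ccn2, at 107 and 90.2 FPKM, did not pass. Of the other called genes, named after their values were seen, Gadd45b went from 14.0 to 17.7 FPKM, Rhob from 84.2 to 93.3 and Ier5 from 18.8 to 16.7. The calls of Rhob and Ier5 were lost on leaving out each library (adjusted p 0.0654 to 0.141 and 0.0524 to 0.114), and that of Gadd45b for each but GCA replicate 2 (0.0575 to 0.0807). The calls of Gadd45a, Btg1 and Klf10 held without each library in turn. That of Klf6 was lost without PBS replicate 2 or 3 or GCA replicate 1 or 3 (adjusted p 0.0575 to 0.0669), and that of Klf2 without each PBS library in turn (0.0531 to 0.0753). The count for the list was 3 without PBS replicate 2 or 3, 4 without PBS replicate 1 and 5 without GCA replicate 1 or 3. Over all genes 1225 to 2078 were called on leaving out 1 library, against 2151 with all 6.

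Several partners of the members were called. In the list of AP-1 partners and EGR co-factors 13 of 16 genes were tested, and 4 rose, 2 fell and 7 did not pass, which is 46.2% called beside 17.9% of all genes. Maf, a large MAF protein that dimerizes with FOS and is known in macrophages, rose from 45.0 ± 1.75 to 60.8 ± 3.45 FPKM (SD, n = 3 each). Beside it 6 of 12 macrophage markers rose, where 11.5% of all genes did, and Lyz2 fell (log2 −0.61, limma adjusted p = 0.00241); the part of those cells was not tested. Atf3, a stress-induced partner of JUN, fell from 15.1 ± 1.18 to 10.6 ± 0.72 FPKM (log2 −0.47, SE 0.070, limma adjusted p = 0.00384). Maff, a small MAF protein, fell from 4.59 to 3.63 FPKM, and Batf2, a partner of JUN in activated macrophages, rose from 1.48 to 2.70. Jdp2, a repressor that pairs with JUN, at 35.3 and 34.4 FPKM, and Mafg, at 24.6 and 23.7, did not pass. Batf, which also rose, was named after its values were seen and went from 7.69, 7.72 and 8.90 FPKM in PBS to 11.5, 15.0 and 9.88 in GCA. Its call was lost without each PBS library or GCA replicate 1 (adjusted p 0.0795 to 0.132). Maf and Atf3 held without each library in turn. The call of Maff was lost without PBS replicate 1 or 3 or GCA replicate 3 (adjusted p 0.0535 to 0.0677), and that of Batf2 without PBS replicate 2 or 3 or GCA replicate 1 or 3 (0.0717 to 0.0958). The count was 3 on leaving out each PBS library.

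The kinases and SRF co-factors upstream showed 1 call among 26 tested of 27 listed (3.85%, beside 17.9% of all genes). Mapk14, which encodes the stress kinase p38 alpha, rose from 32.1 ± 0.76 to 37.4 ± 1.82 FPKM (SD, n = 3 each; log2 0.22, limma adjusted p = 0.0221). That call was lost on leaving out each PBS library or GCA replicate 3 (adjusted p 0.0554 to 0.0683), and with no filter (0.0687). The ERK kinase gene Mapk3, at 62.3 and 58.4 FPKM, did not pass. The count was 4 after quantile normalization and 3 without GCA replicate 2.

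Among 15 tested genes of ERK feedback, 1 rose, 1 fell and 13 did not pass (13.3% called beside 17.9%). Dusp4, a nuclear phosphatase of ERK, went from 4.97, 3.52 and 3.42 FPKM in PBS to 2.25, 1.73 and 2.49 in GCA, with no overlap (log2 −0.65, SE 0.138, limma adjusted p = 0.0175). Etv5, an ETS factor induced by ERK, was at 14.0 and 16.1 FPKM (limma adjusted p = 0.0495), and the call was lost on leaving out each library in turn (0.0519 to 0.124) and after quantile normalization (0.0778). Dusp1 and Dusp6, the latter at 29.9 and 34.3 FPKM, did not pass. The count was 4 without GCA replicate 2, and 1 on leaving out each PBS library or GCA replicate 3.

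Genes known as AP-1 targets gave 1 higher, 1 lower and 14 not passing among 16 tested (12.5% called beside 17.9%). Spp1, which encodes osteopontin, went from 3567, 3621 and 4478 FPKM in PBS to 1722, 1478 and 1765 in GCA, and it is also made by macrophages. Its difference was −1.23 log2 units (SE 0.105, limma adjusted p = 0.000518). Tgfb1, a growth factor of bone and immune cells, rose from 37.4 ± 0.67 to 44.2 ± 1.67 FPKM (SD, n = 3 each), with an adjusted p of 0.0118 that was 0.0523 without PBS replicate 3. The collagenase Mmp13, a textbook AP-1 target, stood at 330 ± 3.70 and 329 ± 16.7 FPKM, and its inhibitor Timp1 at 294 ± 29.4 and 283 ± 14.6. Neither passed limma. The count was 1 without PBS replicate 3.

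Of the MYC network, 0 of 11 tested genes passed limma, beside 17.9% of all genes. The partner Max, at 31.3 and 36.2 FPKM, and the related Mlx, at 17.9 and 17.6 FPKM, were the most abundant. At an unadjusted p under 0.05 there were 4 (Max, Mxd1, Mnt and Mycbp), and the share of all genes under that value was not counted. Limma-voom on fragments called 1, Mxd1, a repressor that competes with MYC for MAX, with 2716 of 11974 genes called over all. Among 26 tested MYC target genes 1 rose, 3 fell and 22 did not pass (15.4% called beside 17.9%). Odc1, the first enzyme of polyamine synthesis, rose by 0.32 on the log2 scale (SE 0.072, limma adjusted p = 0.0191), from a PBS mean of 19.9 FPKM. The ribosome assembly genes Ddx21 and Bop1 fell from 27.2 to 23.5 and from 22.8 to 19.9 FPKM, and Ldha, which makes lactate, fell from 163 to 141. Npm1, at 124 and 111 FPKM, and Eif4a1, at 142 and 139 FPKM, did not pass. All 4 calls were lost without at least 1 library: Odc1 without PBS replicate 1 or GCA replicate 1 or 3 (adjusted p 0.0531 to 0.0602), Ddx21 without PBS replicate 1 or 2 or GCA replicate 3 (0.062 to 0.0707), Bop1 on leaving out each library but GCA replicate 2 (0.0547 to 0.094) and Ldha without PBS replicate 2 or 3 or GCA replicate 1 or 3 (0.105 to 0.122). The count was 0 without GCA replicate 3, 1 without PBS replicate 1 or 2, and 2 without PBS replicate 3 or GCA replicate 1.

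**Figure D5:**
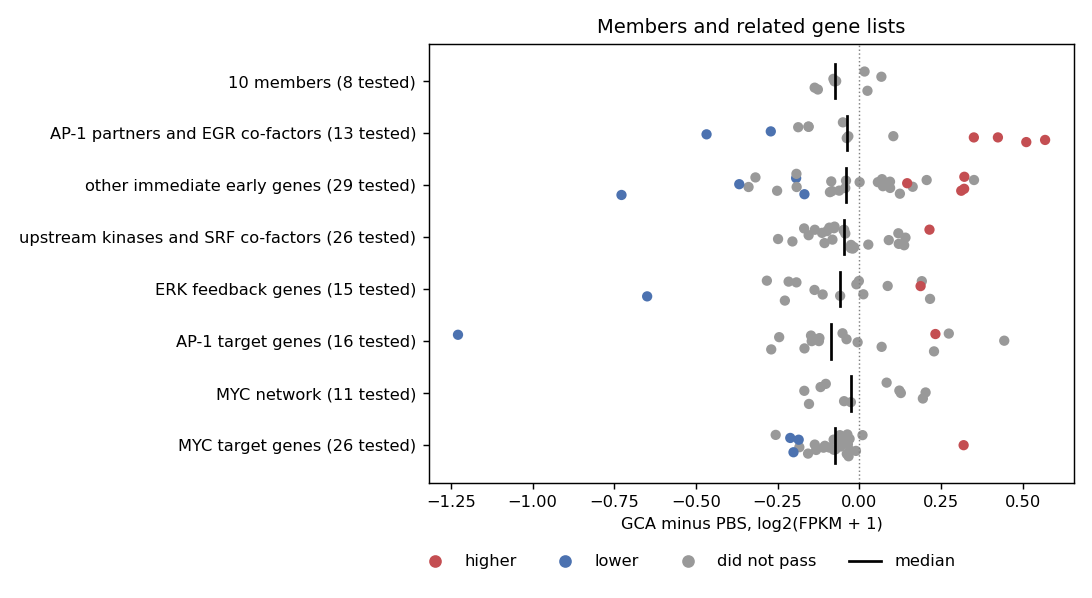
Difference GCA minus PBS on the log2(FPKM + 1) scale (horizontal axis) for the tested genes of the members and of 7 related lists, 1 point per gene, with the list median as a black bar. The members lie near 0 and none is coloured as called, while the partners of AP-1 include 4 higher and 2 lower genes.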

How the data were processed

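The deposited values are 1 number per Ensembl gene and library, with the unit named in no header. They were read as FPKM: times the exon length in GENCODE M21 (GRCm38) and 1 whole total per library, 90.8% to 91.0% of the deposited values of 27204 matched genes were whole fragments within 0.02. Fragments over all genes summed to 18929244 to 19943239 per library, above those totals. For Fosl1 the length 1707 gave whole fragments in all libraries and was used. The only tool in the submitters' processing notes is Bowtie 0.12.2, beside builds mm8 and mm9, and the sources used here give no counting tool, filter or strand setting. Coordinates are those of GENCODE M21, joined by identifier. The members and lists were chosen with earlier results of these data known. The test was limma 3.58.1 (R 4.3.3), with trend and robust moderation, on log2(FPKM + 1), over genes averaging 1 FPKM or more, two-sided, with Benjamini-Hochberg adjustment over all genes tested. It was tested on simulated data in which all genes shared the same setting for replicate spread. That run does not speak for members of wide spread, such as Egr1 and Fos. Named genes were the 10 members, up to 5 called genes of each list with the smallest p and up to 2 uncalled ones with the highest mean FPKM, and 3 genes most correlated with Fos, Egr1, Junb and Myc; exceptions are marked in the text, and 2 genes that the rule names are not reported here. Older symbols were matched through RefSeq synonyms for 4 genes. Tables and plots used Python 3.11.15, numpy 2.4.6, pandas 2.3.3 and matplotlib 3.10.9. Alternatives were the replicate block, 2 scalings, 2 pseudocounts, 3 filters, plain limma, limma-voom on recovered fragments and leaving out each library. No libraries of a group agreed within sampling noise: the mean chi-square per gene was 5.79 to 22.3 within groups and 26.5 to 33.4 between them. No batch is named in the labels or headers.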

Additional observations from a re-analysis of the deposited data

How the results depend on the processing

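The count of 0 members past the threshold was 0 to 1 on leaving out 1 library, the 1 being Fos without GCA replicate 2, and 0 under the other alternatives run. The median difference of the members was −0.13 to 0.045 on leaving out 1 library. Single members changed sign: Jun was −0.022 and Egr1 −0.0012 after quantile normalization. On leaving out 1 library each, the differences ran from −0.41 to 0.071 for Fos, −0.00066 to 0.10 for Fosb, −0.061 to 0.12 for Jun, −0.16 to 0.083 for Junb, −0.014 to 0.20 for Jund and −0.24 to 0.20 for Egr1. Among other named genes they ran from −0.11 to 0.026 for Timp1, −0.086 to 0.043 for Mlx, −0.084 to 0.0015 for Jdp2 and −0.039 to 0.034 for Mmp13, which was 0.028 after quantile normalization. The counts on leaving out 1 library were 3 to 6 for partners, 3 to 8 for other immediate early genes, 0 to 3 for upstream kinases, 1 to 4 for ERK feedback, 1 to 3 for AP-1 targets and 0 to 4 for MYC targets. Over all genes 1225 to 2078 were called in those fits, against 2151 in the fit reported. Without a filter the counts were 2 for partners, 3 for other immediate early genes and 0 for upstream kinases, ERK feedback and MYC targets. Over all genes 1075 of 27263 were called in that fit. With a filter at 0.1 FPKM the counts were 5 for other immediate early genes, 2 for upstream kinases and 1 for ERK feedback, and with a filter at 5 FPKM 4 for upstream kinases and 1 for ERK feedback. Over all genes these 2 filters gave 1704 of 18389 and 1861 of 7336 called. Quantile normalization gave 4 upstream, 1 feedback and 7 MYC target calls, and median centring 4 upstream and 1 feedback, with 2198 of all genes called after centring. Plain limma gave 1 feedback call, with 2001 of all genes called. Limma-voom gave 4 upstream calls, 1 of the MYC network and 6 MYC targets. It called 12 of 29 other immediate early genes, 5 higher and 7 lower, against 8 in the fit reported. Over all genes limma-voom called 2716 of 11974. The cause of these shifts was not tested. Over all genes quantile normalization called 1198 higher and 1027 lower, against 1380 and 771 in the fit reported. With the replicate block 0 members and 2 upstream genes were called, and 2094 of all genes; Etv5 and Bop1 lost their calls (adjusted p 0.0583 and 0.0522) and Dusp6 passed (0.0406). Same-numbered libraries deviated together with r = 0.082, 0.029 and 0.068, so the numbers were not taken to pair them. Depth limits Fosb and Egr2, with 17 to 63 fragments per library.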
